A study of Mus musculus with 4 samples.

Results

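The cells described here are the endothelial cells that were caught when the inner ear region of mouse embryos was dissected and sorted for single-cell RNA sequencing. A cell was counted as endothelial when it had at least 1000 detected genes, at most 10% mitochondrial unique molecular identifiers (UMIs, one per captured RNA molecule) and at least 4 UMIs summed over Cdh5, Pecam1, Kdr and Emcn, with no UMI of the leukocyte gene Ptprc or the epithelial gene Epcam. The rule left 112 of 14985 cells that passed the same filters on genes and mitochondrial UMIs, which is 0.747%. Because the rule reads expression, the 4 marker genes are given as a description, and so is every gene set against the other cells.

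The libraries came from Swiss-Webster embryos at E10.5, the middle of gestation, staged at 34 to 36 somites. The 2 cKO libraries were made from embryos that carried Pax2-Cre, Rosa26-GFPf/+ and floxed alleles of both genes, Tbx2f/f and Tbx3f/f. Cre driven by Pax2 sequences deletes the floxed parts and switches on the GFP reporter. The 2 control libraries were made from Pax2-Cre;Rosa26-GFPf/+ embryos, so Cre and the reporter were shared by both groups. The otic vesicle was taken with its ganglion and some neural tube and pharyngeal tissue, and live GFP-positive cells were sorted from pooled embryos, 2 of the cKO and 3 of the control genotype. How the embryos were divided between the libraries is not given in the sources used here, so the spread between libraries may be technical.

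Endothelial cells line blood vessels and are held together by VE-cadherin, the product of Cdh5. VEGF acting on the receptor encoded by Kdr drives their growth, and ETS and SOXF transcription factors set their identity. Arterial cells use Notch signalling, the ligand Dll4, ephrin-B2 and gap junction proteins such as those encoded by Gja4 and Gja5, whereas venous cells depend on Nr2f2 and carry the receptor EphB4. At this stage the head is still being vascularised by a plexus that sprouts toward tissues that make VEGF.

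The libraries held 106769747 (cKO 1), 124986694 (cKO 2), 128205192 (control 1) and 111724972 (control 2) UMIs. Endothelial cells numbered 33 of 3344 passing cells in cKO 1 and 28 of 3861 in cKO 2, against 32 of 4023 in control 1 and 19 of 3757 in control 2. Their median depth was 18778 and 24886.5 UMIs in the cKO libraries, against 24407.5 and 24003 UMIs in the controls, and 29119 UMIs in all other passing cells. Of the deleted genes, Tbx2 had 34.3 and 45.3 CPM (UMIs scaled to 1e6 in the cells summed) in the other cells of the cKO libraries, against 56.9 and 59.1 CPM in controls. Tbx3 had 16.4 CPM in both cKO libraries, against 53.8 and 52.6 CPM in controls. Reads from transcript ends can lie outside the deleted part, so these levels check the labels only in part.

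Some members rested on little evidence, and they are named before the results. At the threshold, 6 passing cells without Ptprc or Epcam had 3 marker UMIs and stayed out, while 1 cell with 4 and 4 cells with 5 marker UMIs went in. All 4 marker genes were found in 96 of the 112 cells, 3 of them in 5 cells, a pair in 6 cells and 1 gene alone in 5 cells. The median cell held 43.5 marker UMIs, with a range of 4 to 175. Over a list of 36 further endothelial genes, the median cell had UMIs of 27.5 and 98 cells had UMIs of at least 20.

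Of the members with 1 marker gene, 4 had Kdr alone, 2 in cKO 1 and 2 in cKO 2, and no control library held such a cell. These 4 cells had 5 to 7 Kdr UMIs and UMIs of 1 to 3 of the 36 endothelial genes, with 26 to 125 UMIs of a list of sensory neuron genes. They held 115 of the 121 Neurod1 UMIs, 119 of the 121 Phox2a UMIs and 94 of the 100 Isl1 UMIs found in all members, 3 genes of transcription factors of neuron precursors. The label endothelial therefore does not describe these 4 cells, and the genotype results are given with and without them. Scrublet scored 5 members as doublets, 1 in cKO 1, 1 in control 1 and 3 in control 2, and 1 member's barcode was also found in another library. A control 1 cell with 4 marker UMIs held 2791 Pf4 UMIs and 13 Gata1 UMIs, and a cKO 2 cell with 5 marker UMIs held 176 and 3. Pf4 and Gata1 are genes of megakaryocytes and their precursors, and these cells had UMIs of 14 and 11 of the 36 endothelial genes.

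**Figure D1:**
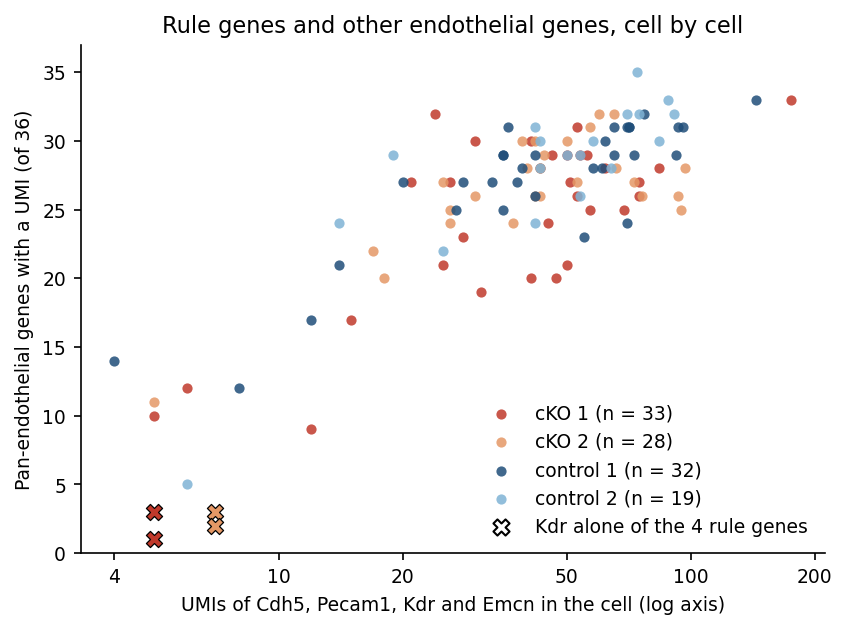
Each point is 1 of the 112 cells, by its summed UMIs of Cdh5, Pecam1, Kdr and Emcn (log axis) and the number of the 36 other endothelial genes with a UMI, coloured by library. The 4 cells with Kdr alone lie at 5 to 7 marker UMIs with 1 to 3 endothelial genes, and 98 cells lie at 20 genes or more.

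The 4 marker genes were at similar levels in all libraries. Emcn, which encodes the surface sialomucin endomucin, had 908 and 962 CPM in cKO and 983 and 1002 CPM in control endothelial cells (ENSMUSG00000054690, mm10 chr3:137341067-137432185). Kdr, the main VEGF receptor, had 475 and 493 CPM in cKO, against 587 and 573 CPM in control (ENSMUSG00000062960, chr5:75932827-75978458). Cdh5 had 447 and 345 CPM in cKO, against 407 and 346 CPM in control (ENSMUSG00000031871, chr8:104101625-104144511). Pecam1, an adhesion molecule of endothelial and blood cells, had 222 and 166 CPM in cKO, against 194 and 154 CPM in control (ENSMUSG00000020717, chr11:106654217-106750628). Their means in the other passing cells were 1.85, 1.80, 0.691 and 0.955 CPM in that order of genes.

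The 36 endothelial genes that the rule did not read directly were also far above the other cells. In a comparison of endothelial and other summed counts, with each library as a block, edgeR's quasi-likelihood test placed 2208 of 15394 genes higher in endothelial cells at an adjusted p under 0.05, which is 14.3% of the genes tested. It placed 2865 lower, which is 18.6%, and 33% were called in all. All 36 endothelial genes were on the higher side, with a median log2 difference of 7.76, beside a median of -0.21 over all genes tested. The same cells were selected by endothelial genes, so this count describes the selection and supports nothing by itself.

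Ramp2, a co-receptor for adrenomedullin, had 1379 and 1275 CPM in cKO and 1259 and 987 CPM in control endothelial cells, and its mean in other cells was 3.82 CPM. Cldn5, the claudin of endothelial tight junctions, had 773 and 774 CPM in cKO and 637 and 883 CPM in control. Its endothelial mean was 767 ± 101 CPM (SD, n = 4 libraries), against 2.60 ± 1.71 CPM in other cells, a log2 difference of 8.40 (SE 0.32). With each cell thinned to 5000 UMIs, Cldn5 was found in 86.1% of the endothelial cells and in 0 of 124 leukocyte-like cells, which allows a share of up to 2.42%. Plvap, which forms the diaphragms of fenestrated and immature endothelium, had 434 and 441 CPM in cKO, against 444 and 425 CPM in control.

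Transcription factor genes of the lineage were also found. Erg averaged 30.7 ± 6.61 CPM, Sox7 19.8 ± 6.77 CPM and Sox18 131 ± 45.5 CPM (SD, n = 4 libraries), against 0.108, 0.0724 and 0.544 CPM in other cells. Fli1, an ETS factor shared with blood, averaged 94.9 ± 17.0 CPM in endothelial cells and 58.3 CPM in leukocyte-like cells. Etv2, an ETS factor of early endothelial precursors, was uneven, with 116 UMIs in 10 cells. Of these, 50 UMIs lay in 1 cell of cKO 1 and 39 in the cells with Kdr alone.

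The promoters of these genes were read for the ETS core because ETS factors are known to act through it. The windows are the 250 bases before the RefSeq start on GRCm38.p6, and the motif was CAGGAAG or CCGGAAG on either strand. RefSeq windows were found for 20 of the 36 endothelial genes, and 9 of their 28 windows held the motif (32.1%), against 5585 of all 32851 windows (17.0%). The base after the window began a stretch found in a GENCODE vM21 transcript of the same gene for 48.4% of all windows and for each window shown. A match is a description and not a site. Of the windows shown, 5′ to 3′ on the gene's strand with matches in capitals, the one of Egfl7, a secreted factor of endothelial cells, is on the plus strand of chr2:26580833-26581082 and had 2 matches. That of Cd34, a sialomucin of endothelial and blood progenitor cells, is on the plus strand of chr1:194938571-194938820 and had 1 match. That of Cldn5, on the plus strand of chr16:18776597-18776846, held none of these letters and is shown for contrast. Egfl7 is shown by its window with the most matches. Its window at chr2:26583615-26583864 had 1 match and that at chr2:26586386-26586635 had 0.
Egfl7: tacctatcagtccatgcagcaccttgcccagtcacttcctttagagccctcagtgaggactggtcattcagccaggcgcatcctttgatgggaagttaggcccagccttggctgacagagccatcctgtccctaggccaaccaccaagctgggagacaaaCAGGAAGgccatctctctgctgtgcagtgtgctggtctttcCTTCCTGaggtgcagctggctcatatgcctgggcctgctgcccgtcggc
Cd34: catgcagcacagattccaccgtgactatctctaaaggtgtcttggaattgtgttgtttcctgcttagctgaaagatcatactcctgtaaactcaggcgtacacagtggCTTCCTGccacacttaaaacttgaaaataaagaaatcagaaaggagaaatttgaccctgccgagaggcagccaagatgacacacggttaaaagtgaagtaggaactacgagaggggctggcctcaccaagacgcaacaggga
Cldn5: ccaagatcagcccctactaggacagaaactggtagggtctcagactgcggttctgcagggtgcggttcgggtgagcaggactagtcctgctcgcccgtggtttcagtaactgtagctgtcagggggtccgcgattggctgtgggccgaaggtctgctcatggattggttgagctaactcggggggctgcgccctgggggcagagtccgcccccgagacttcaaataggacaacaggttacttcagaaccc
Egfl7 averaged 861 ± 92.6 CPM, Cd34 328 ± 102 CPM and Cldn5 767 ± 101 CPM in endothelial cells (SD, n = 4 libraries). The window shown with no match therefore belonged to a gene well detected in all 4 libraries.

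Genes that signal to or shape the vessel wall were higher as well. All 14 tested genes of a basement membrane and matrix list were on the higher side, with a median log2 difference of 2.77. Col4a1, a collagen chain of basement membranes, averaged 655 ± 82.6 CPM in endothelial cells, against 85.2 ± 12.5 CPM in others. Nid1, which links laminin to collagen, averaged 110 ± 12.1 CPM, against 3.31 ± 1.12 CPM. All 9 tested genes of a shear stress and KLF list were higher, with Klf2, a flow-responsive factor, at 183 ± 19.5 CPM, against 2.16 ± 0.714 CPM. Klf2 UMIs were found in 55 of the 112 cells.

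All 4 tested genes of the VEGF receptor list were on the higher side, while no gene of the 5 VEGF ligands was higher and Vegfa was lower. Flt1, a receptor that binds VEGF and limits its action, averaged 289 ± 41.7 CPM, against 1.10 ± 0.449 CPM in other cells. Flt4, the receptor for VEGF-C, averaged 45.8 ± 8.93 CPM, against 0.804 ± 0.134 CPM. Vegfa averaged 5.36 ± 1.56 CPM in endothelial cells and 14.1 ± 4.92 CPM in other cells.

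Outside the lists, the 20 leading genes included several of known endothelial use. Ctla2a, a cysteine protease inhibitor, led with a log2 difference of 9.29. Clec1b, a lectin receptor known from platelets, followed with 9.17, Adgrf5, an adhesion receptor, with 9.14 and Ptprb, the phosphatase VE-PTP, with 8.70. Gimap4, Gimap6 and Gimap1, GTPase genes known mainly from lymphocytes, had 8.26, 8.01 and 7.48. Clec1b was uneven, with 101 and 344 CPM in cKO and 365 and 121 CPM in control endothelial cells.

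**Figure D2:**
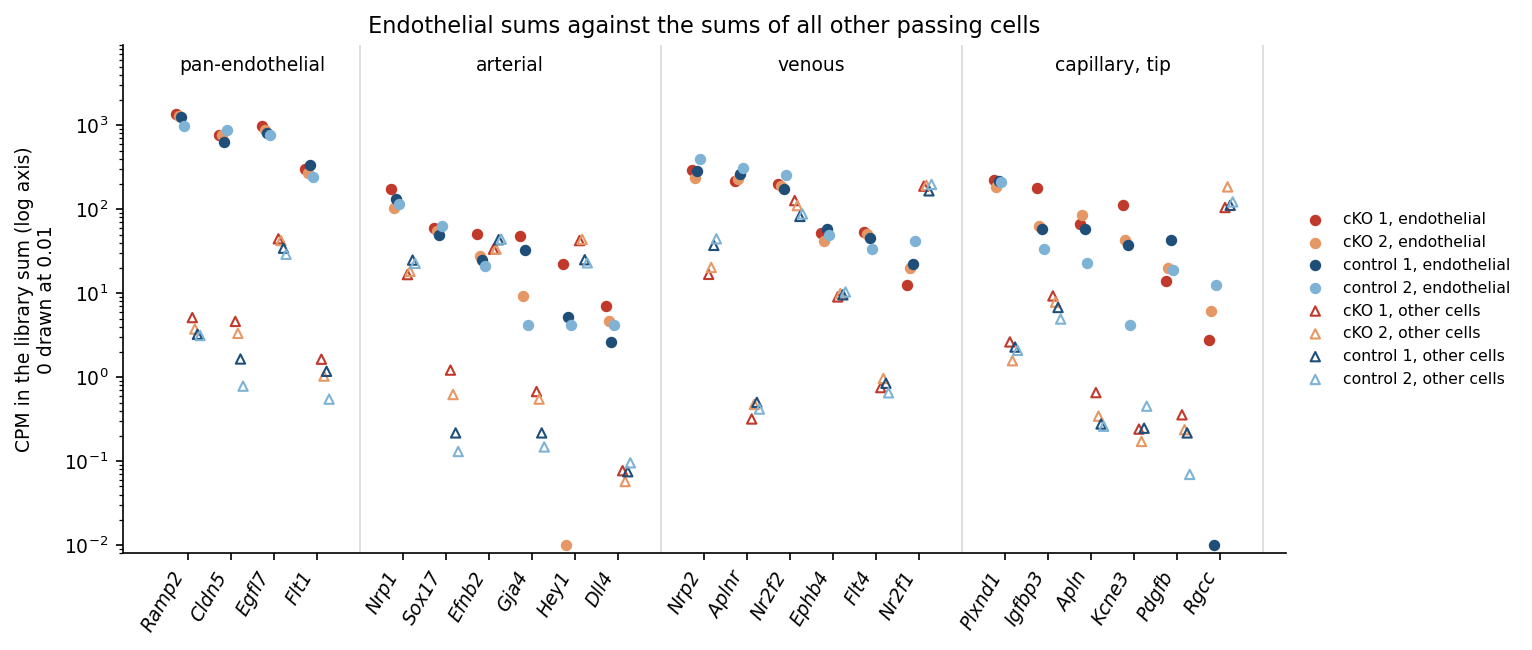
Points are CPM of the endothelial sum of each library (filled; log axis, with a count of 0 drawn at 0.01) and of the other passing cells (open), for genes of the pan-endothelial, arterial, venous and capillary groups. Endothelial markers, Aplnr and Nrp2 lie far above the other cells, whereas Efnb2 overlaps them and Hey1 lies below them.

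Venous genes were found in nearly all cells. Of 9 tested venous genes, 7 were higher in endothelial cells and 1 was lower, with a median log2 difference of 2.38. Aplnr, the apelin receptor found on venous and sprouting endothelium, had 218 and 230 CPM in cKO and 260 and 308 CPM in control endothelial cells (ENSMUSG00000044338, chr2:85136225-85139923). Its mean was 254 ± 40.3 CPM, against 0.428 ± 0.0813 CPM in other cells, a log2 difference of 9.20 (SE 0.15). Nr2f2, the orphan receptor that sets venous fate, had 201 and 188 CPM in cKO and 175 and 256 CPM in control (ENSMUSG00000030551, chr7:70351944-70366735). Other cells also used Nr2f2, with a mean of 102 ± 20.6 CPM, so its log2 difference was 1.01 (SE 0.13).

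Nrp2, a co-receptor for VEGF-C, had 291 and 237 CPM in cKO and 284 and 394 CPM in control, against a mean of 29.7 ± 13.3 CPM in other cells. Ephb4, the receptor of ephrin-B2, averaged 50.5 ± 6.95 CPM, against 9.71 ± 0.547 CPM. Dab2, an endocytic adaptor, averaged 143 ± 12.6 CPM in endothelial cells but 1279 CPM in leukocyte-like cells. Nr2f1, a relative of Nr2f2 used by neural and otic cells, was on the lower side, with 24.1 ± 12.4 CPM, against 186 ± 14.2 CPM in other cells. Lrg1, a gene of mature venules, had no UMI among 2672319 endothelial UMIs, which allows up to 1.12 CPM for counting error alone.

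Arterial genes were sparser and more mixed. Of 18 tested arterial genes, 9 were higher in endothelial cells and 2 were lower, with a median log2 difference of 1.30. Sox17, a SOXF factor of arterial endothelium, had 59.0 and 55.5 CPM in cKO and 49.4 and 62.5 CPM in control endothelial cells (ENSMUSG00000025902, chr1:4490931-4497354), against a mean of 0.546 CPM in other cells. Its 146 UMIs lay in 51 of the 112 cells. Acvrl1, a BMP receptor of the vessel wall, averaged 36.4 ± 11.1 CPM and Epas1, a hypoxia-inducible factor, 29.9 ± 9.58 CPM, against 0.413 and 0.238 CPM in other cells.

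The arterial ligand and junction genes were rare. Gja4, the gene of connexin 37, had 47.8 and 9.25 CPM in cKO and 32.5 and 4.17 CPM in control endothelial cells (ENSMUSG00000050234, chr4:127311421-127314039), from 67 UMIs in 9 cells. Gja5, the gene of connexin 40, had 15 UMIs in 2 cells, both of cKO 1. Dll4, the Notch ligand of arteries and tip cells, had 12 UMIs in 9 cells. Efnb2, the gene of ephrin-B2, averaged 31.0 ± 13.4 CPM in endothelial cells and 38.6 ± 5.91 CPM in other cells and did not reach the threshold. Hey1, a Notch target, was on the lower side, with 22.5 and 0 CPM in cKO and 5.20 and 4.17 CPM in control, against 42.4 and 43.7 CPM in cKO and 25.1 and 23.0 CPM in control other cells.

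Most cells held venous UMIs, and arterial UMIs were found in cells that also held venous ones. Each cell was thinned to 5000 UMIs, which left out 4 shallower cells, and UMIs were summed over 8 arterial genes (Gja4, Gja5, Dll4, Efnb2, Hey1, Hey2, Sox17 and Unc5b) and 5 venous genes (Nr2f2, Ephb4, Nrp2, Aplnr and Flt4). Of 108 cells, 34 had at least 1 UMI of both sums (31.5%, exact Clopper-Pearson 95% interval 22.9% to 41.1%, counting error only). A further 65 had venous UMIs alone (60.2%), 9 had neither (8.33%), and 0 cells had arterial UMIs alone, which at this depth does not show that such cells were absent. Both sums were found in 8 of 30 cells in cKO 1, 11 of 28 in cKO 2, 11 of 32 in control 1 and 4 of 18 in control 2.

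Before thinning, the arterial sum had a median of 1 UMI per cell and a maximum of 46, with 39 cells at 0. The venous sum had a median of 18 and a maximum of 52, with 4 cells at 0. Cells with at least 10 UMIs numbered 7 for the arterial sum and 89 for the venous sum. Across the 108 thinned cells, Spearman's rho of the sums was -0.01, given as a description. These cells share 4 libraries, and their sums are small. The sums are ranges of a score and not cell types. Nr2f2 and Efnb2 are also used by other cells, and the 4 cells with Kdr alone held 41 Nr2f2 UMIs, 3 Nrp2 UMIs and no Aplnr UMI.

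**Figure D3:**
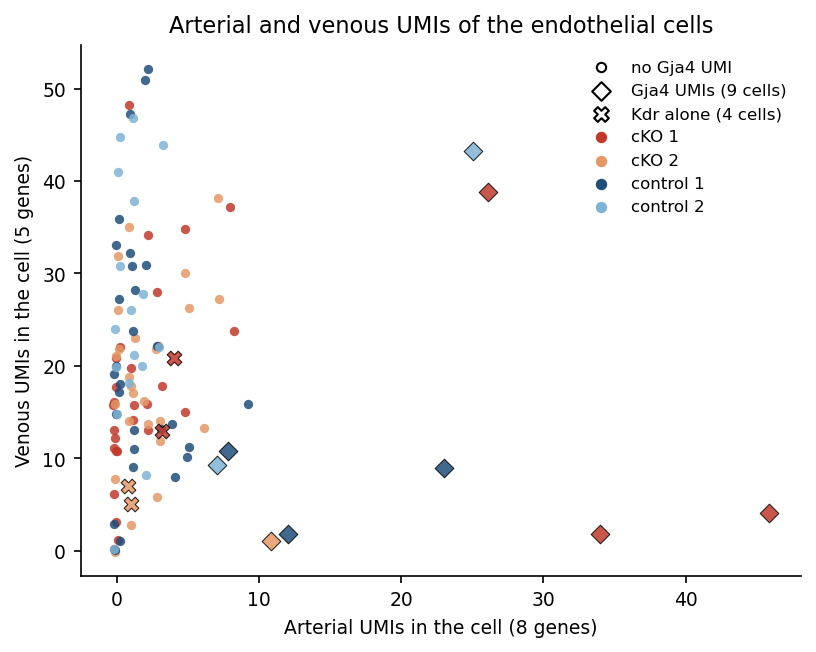
Each point is 1 of the 112 cells before thinning, by its UMIs of the 8 arterial genes and of the 5 venous genes, coloured by library, with diamonds for the 9 cells with a Gja4 UMI and crosses for the 4 cells with Kdr alone. Most cells stand near 0 arterial UMIs over the whole venous range, and the highest arterial sum, 46 UMIs, belongs to a Gja4 cell of cKO 1 with 4 venous UMIs.

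The 9 cells with a Gja4 UMI were set beside the 99 others, leaving out the 4 cells with Kdr alone. This split was chosen after the values were seen, so it is a description with no test. There were 3 and 1 Gja4 cells in the cKO libraries and 3 and 2 in the control libraries. Their median depth was 17418 UMIs, against 23824 UMIs in the 99 others. Sox17 was found in all 9 Gja4 cells, at 295 CPM over their sum, against 37.9 CPM over the sum of the others.

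The difference extended to several arterial genes. Nrp1, a VEGF co-receptor, had 248 CPM in Gja4 cells, against 109 CPM in others, and Efnb2 had 121 CPM, against 23.6 CPM. Of the 22 Hey1 UMIs, 14 lay in Gja4 cells, 4 in the 99 others and 4 in the cells with Kdr alone. Of the 6 Hey2 UMIs, 5 lay in Gja4 cells and none in the 99 others. Both Gja5 cells were among the 9.

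Venous genes were not all lower in the Gja4 cells. Aplnr had 89.6 CPM in Gja4 cells, against 267 CPM in others, and Nr2f2 had 126 CPM, against 193 CPM. Nrp2 had 311 CPM, against 297 CPM, and Ephb4 52.7 CPM, against 50.9 CPM. The 2 richest venous cells of the 9 carried much of this, since a cKO 1 cell had 26 arterial and 39 venous UMIs and a control 2 cell had 25 and 43. The other Gja4 cells of cKO 1 had 46 and 34 arterial UMIs with 4 and 2 venous UMIs. The control 2 cell was scored as a doublet. The cKO 1 cell with 39 venous UMIs was not, but it held 4 Neurod1, 2 Phox2a and 4 Isl1 UMIs. It had no UMI of Pecam1 or Aplnr, while it held 26 Emcn UMIs and UMIs of 20 of the other endothelial genes listed. Without the members scored as doublets, Nrp2 had 213 CPM in the remaining 8 Gja4 cells, against 311 CPM in 95 others, which turns its direction, and Nr2f2 had 59.9 CPM, against 204 CPM. Sox17 then had 259.8 CPM, against 39.1 CPM, and Aplnr 113 CPM, against 275 CPM. The cKO 1 cell with 39 venous UMIs held 26 of the 32 Nrp2 UMIs of these 8 cells, so their Nrp2 value rests largely on it.

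Genes named for sprouts and tip cells went both ways in the Gja4 cells. Pdgfb had 84.3 CPM in Gja4 cells, against 20.6 CPM in the others, and Dll4 had 4 UMIs in Gja4 cells, against 8 UMIs in the others. Igfbp3, of the same capillary list as Pdgfb, had 94.8 CPM, against 89.6 CPM. Apln, the ligand of Aplnr and a tip cell gene, had 0 UMIs among 189780 in the Gja4 cells, which allows up to 15.8 CPM, against 159 UMIs and 66.9 CPM in the others. Kcne3, a potassium channel subunit of tip cells, had 1 UMI in Gja4 cells, against 137 UMIs in the others. Bmp4, a secreted growth factor, had 3 UMIs, against 278. Emcn had 432 CPM, against 1020 CPM, while Cdh5 had 400.5 CPM, against 398 CPM.

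**Figure D4:**
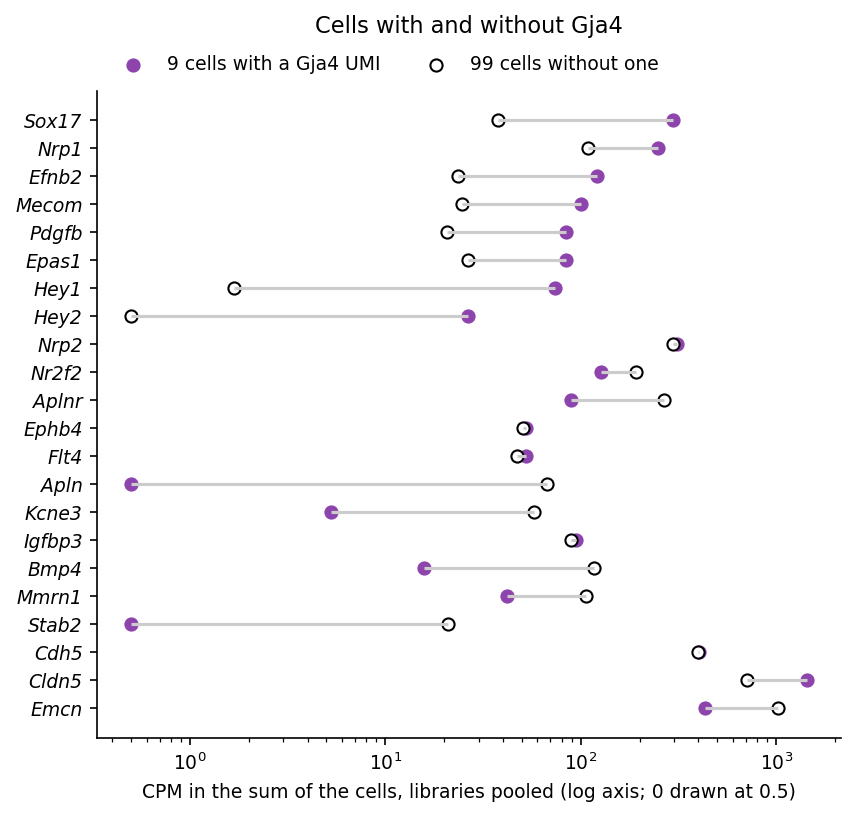
Filled points give the CPM over the sum of the 9 cells with a Gja4 UMI and open points that over the 99 other cells, libraries pooled (log axis, 0 drawn at 0.5), with a line joining the pair of each gene. Sox17, Nrp1 and Efnb2 are higher in Gja4 cells and Aplnr, Apln, Bmp4 and Emcn are lower, while the points of Nrp2, Ephb4, Flt4 and Cdh5 nearly coincide.

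Genes outside the lists that varied most like the arterial sum across the 108 thinned cells were Stx6 (Spearman's rho 0.41), Tcim (0.39) and Gcc2 (0.37), among 3159 genes found in at least 20% of cells. Those most like the venous sum were Rrbp1 (0.49), Aplp2 (0.47) and Adam10 (0.45). These values are weak, are the highest of many and share depth and library. They are listed as a description.

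Capillary and sprouting genes were present in part. Of 16 tested genes of this list, 12 were higher in endothelial cells and 1 was lower, with a median log2 difference of 2.95. Plxnd1, a semaphorin receptor that guides sprouts, had 222 and 182 CPM in cKO and 217 and 210 CPM in control, against a mean of 2.14 CPM in other cells. Apln had 67.5 and 84.8 CPM in cKO and 58.5 and 22.9 CPM in control (ENSMUSG00000037010, chrX:48025146-48034853), from 159 UMIs in 61 cells. Kcne3 had 111 and 43.2 CPM in cKO and 37.7 and 4.17 CPM in control, and its libraries differed more than those of most listed genes.

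Pdgfb, which recruits pericytes, averaged 23.9 ± 12.9 CPM, against 0.220 CPM in other cells. Angpt2, a destabilising ligand of the receptor Tek, averaged 4.96 ± 2.48 CPM, against 2.67 ± 0.245 CPM, and did not pass the test. Esm1, a tip cell proteoglycan, had 5 UMIs in 1 cell, and Aqp1, a water channel of some capillaries, had none. Rgcc, a cell cycle regulator named in capillary lists of adult tissue, was on the lower side, with 5.37 ± 5.38 CPM, against 131 ± 36.6 CPM in other cells.

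The brain capillary barrier list was mixed. Of 22 tested genes, 10 were higher, 3 were lower and 9 missed the threshold; their median log2 difference was 0.76. Slc2a1, the glucose transporter GLUT1, had 270 and 274 CPM in cKO and 236 and 183 CPM in control, against 44.2 ± 13.1 CPM in other cells. Abcg2, an efflux transporter, averaged 143 ± 19.2 CPM, against 24.1 ± 2.40 CPM. Fzd4 and Adgra2, receptors through which WNT ligands drive brain vessels, averaged 54.6 ± 17.1 and 29.9 ± 15.7 CPM, against 6.52 and 0.664 CPM.

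Later barrier genes were low. Mfsd2a, a lipid transporter, had 7 UMIs in 2 cells, and Abcb1a, the drug pump P-glycoprotein, had 6 UMIs in 5 cells. Ocln, the tight junction protein occludin, had 3 UMIs, and Axin2, a WNT target, averaged 3.00 ± 1.51 CPM, against 22.5 ± 2.54 CPM in other cells. Lef1, the transcription factor of that pathway, averaged 32.4 ± 20.1 CPM, against 19.5 ± 1.92 CPM, and its call was lost under 8 alternatives.

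Lymphatic and endocardial genes were found without the full sets. Mmrn1, a secreted multimerin, had 103 and 77.1 CPM in cKO and 103 and 121 CPM in control endothelial cells, against a mean of 0.270 CPM in other cells. Stab2, a scavenger receptor of venous, sinusoidal and lymphatic cells, averaged 18.9 ± 3.76 CPM, against 0.0462 CPM. Prox1, the factor that sets lymphatic fate, averaged 13.1 ± 5.78 CPM, against 10.4 ± 1.88 CPM, did not pass, and its 34 UMIs lay in 14 cells. Pdpn had 1 UMI. Npr3, a natriuretic peptide receptor of endocardium, averaged 34.8 ± 18.2 CPM and Nfatc1, an endocardial factor, 9.11 ± 2.28 CPM, against 2.68 and 1.12 CPM. Runx1, which marks blood-forming endothelium, had 9 UMIs in 4 cells.

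Markers of other cells were low but not absent in the endothelial sums, and the erythroid list was not below the other cells in every library. Over the 12 listed leukocyte genes, the libraries held 12.6 to 88.3 CPM in endothelial cells and 172 to 254 CPM in other cells, with UMIs of 5 of the 12. The 2 cells with Gata1 UMIs held 48 of the 55 leukocyte UMIs in cKO 2 and 59 of the 68 in control 1. Erythroid genes held 82.9 and 47.8 CPM in cKO and 35.1 and 0 CPM in control endothelial cells. Other cells held 0.974 and 302 CPM of them in cKO and 0.809 and 3.08 CPM in control. All 59 erythroid UMIs of cKO 1 endothelial cells lay in 1 cell. Otic epithelium genes held 14.3 to 60.4 CPM, against 1115 to 1472 CPM. Sensory neuron genes held 651 and 314 CPM in cKO and 36.4 and 560 CPM in control endothelial cells, against at least 1383 CPM in other cells, and 289 of these UMIs lay in 1 cKO 1 cell and 255 in 1 control 2 cell, both scored as doublets. Of 18 S phase genes 2 were higher and 3 lower in endothelial cells, and of 18 genes of G2 and M phase 2 were higher and 8 lower. Mki67, a gene of cycling cells, averaged 157 ± 25.9 CPM, against 145 ± 32.5 CPM, and did not pass.

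Signalling genes of the vessel wall were divided. Of 15 tested Notch genes, 4 were higher and 6 lower in endothelial cells, with Notch4, an endothelial receptor, at 12.6 ± 3.77 CPM, against 3.73 ± 0.430 CPM in other cells. Notch1 averaged 49.3 ± 16.2 CPM, against 44.4 ± 3.26 CPM, and did not pass. Of 16 genes of BMP and TGF-beta signalling, 7 were higher and 3 lower. Bmp4 averaged 111 ± 23.9 CPM, against 28.5 ± 5.08 CPM, and the target gene Id3 670.1 ± 53.7 CPM, against 429 ± 63.4 CPM, whereas Id1, a like target, was on the lower side with 183 ± 72.8 CPM, against 286 ± 40.9 CPM. Of 15 angiopoietin, ephrin and slit genes, 6 were higher and 3 lower, and Tek, the angiopoietin receptor, averaged 134 ± 24.1 CPM, against 0.683 ± 0.0859 CPM.

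The genes deleted in cKO embryos were scarce in endothelial cells of either genotype. Tbx2 had 4 UMIs in all, in 1 cKO 1 cell that is among those with Kdr alone. Tbx3 had 4.22 and 13.9 CPM in cKO and 7.79 and 22.9 CPM in control endothelial cells, from 29 UMIs in 19 cells. The groups overlapped with all members counted. However, 6 of these UMIs lay in cells with Kdr alone, 5 and 1 in cells of cKO 2. The cKO 2 value therefore rests in part, and the overlap wholly, on cells that the label endothelial does not describe. A further 5 of the 29 UMIs lay in 1 control 2 cell scored as a doublet, and all these counts are small. Tbx1, a related factor, had 21.1 and 21.6 CPM in cKO, against 6.50 and 10.4 CPM in control, without overlap, with an adjusted p of 0.37 in edgeR's genotype test. Pax2, whose sequences drive the Cre, had 28 UMIs in 6 cells.

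The share of passing cells that was endothelial was 0.987% and 0.725% in cKO libraries, against 0.795% and 0.506% in control libraries. The groups overlapped, at 0.856 ± 0.185% in cKO and 0.651 ± 0.205% in control (SD, n = 2 each). An exact two-sided permutation test gave p = 0.667, and 2 against 2 libraries cannot go below 0.333. Dissection, pooling and the GFP gate can each set this share, and they cannot be told apart from genotype here.

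Between genotypes, few genes passed the test in endothelial cells, and most of those that rose belonged to the 4 cells with Kdr alone. In the summed counts, 31 of 6716 genes passed edgeR's quasi-likelihood test at an adjusted p under 0.05 (0.462%), 18 higher in cKO (0.268%) and 13 lower (0.194%). An unadjusted p under 0.05 was reached by 723 genes. In 13 of the 18 genes that rose, more than 50% of all endothelial UMIs lay in the 4 cells with Kdr alone. Without these cells, 10 of 6469 genes passed (0.155%), 2 higher in cKO (Ubb and Lgals1, 0.0309%) and 8 lower (0.124%), and all 10 were among the 31. The count turned on single libraries too, with 0 genes passing edgeR's test without cKO 2 (506 at an unadjusted p under 0.05), 139 without control 1 and 103 without control 2. It was 95 without the 5 members scored as doublets.

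The neuronal genes had these values, in CPM after TMM scaling, which is the scale of the rest of the genotype results. Sct, the gene of secretin, had 119 and 187 CPM in cKO, against 1.31 and 2.14 CPM in control. Neurod1 had 63.8 and 116 CPM in cKO, against 0 UMIs in both controls, and Phox2a had 59.6 and 120 CPM, against 0 UMIs. Isl1 had 61.0 and 83.7 CPM, against 1.31 and 2.14 CPM, a log2 difference of 5.31. The groups did not overlap for any of these, and 205 of 209 Sct UMIs lay in the cells with Kdr alone.

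Lgals1, the gene of the sugar-binding protein galectin-1, rose in cKO endothelial cells with or without those 4 cells (ENSMUSG00000068220, chr15:78926725-78930465). It had 319 and 299.8 CPM in cKO, against 95.6 and 128 CPM in control. Its UMIs came from 31 of 33 and 23 of 28 cells in cKO, against 22 of 32 and 15 of 19 cells in control. The log2 difference was 1.49 (SE 0.19, edgeR adjusted p = 0.00681), and 1.60 without the 4 cells (edgeR adjusted p = 0.0109). In the other passing cells it had 138 and 121 CPM in cKO, against 108 and 123 CPM in control. The difference between the genotype effects was 1.32 (SE 0.20, edgeR adjusted p = 6.57e-08). Without cKO 1 the adjusted p was 0.0616 and without cKO 2 it was 0.177, and without the condition on Ptprc and Epcam it was 0.418.

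Ubb, a gene of polyubiquitin, rose in cKO endothelial cells and was also higher in the other cells of the cKO libraries. It had 1709 and 1822 CPM in cKO, against 208 and 319 CPM in control endothelial cells (ENSMUSG00000019505, chr11:62551171-62553213). Its log2 difference was 2.76 (SE 0.19, edgeR adjusted p = 3.03e-04), and it passed no longer without cKO 2 (adjusted p = 0.067). In other cells Ubb had 1878 and 1996 CPM in cKO, against 214 and 261 CPM in control, and the interaction of genotype and cell class did not pass (-0.26, adjusted p = 0.813). Ubiquitin genes hold near-identical repeats, so reads may be split between copies. The part of such splitting in the Ubb values was not tested.

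Of the 13 genes that fell, 6 are encoded in mitochondrial DNA and 4 are ribosomal protein genes, while the ribosomal protein gene Rpl26 rose. mt-Co3, a subunit of cytochrome oxidase, had 2664 and 2812 CPM in cKO, against 5687 and 7259 CPM in control (chrM:8607-9390), a log2 difference of -1.24, beside -1.20 in other cells. Gm8797, a predicted gene, had 641 and 425 CPM in cKO, against 1785 and 2148 CPM in control (ENSMUSG00000103034, chr3:5750806-5751295). Hnrnpa0, an RNA-binding protein gene, had 305 and 285 CPM, against 667 and 811 CPM. Both genes were also lower in the other cells of the cKO libraries. Gm8797 had a log2 difference of -1.58 there, beside -1.88 in endothelial cells, and Hnrnpa0 of -1.01, beside -1.32. The interaction of genotype and cell class passed for neither. The median mitochondrial share of UMIs was 1.95% and 2.06% in cKO endothelial cells, against 2.90% and 3.72% in control, and 1.31% and 1.38%, against 2.40% and 2.96%, in other cells. Its part in these results was not tested.

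**Figure D5:**
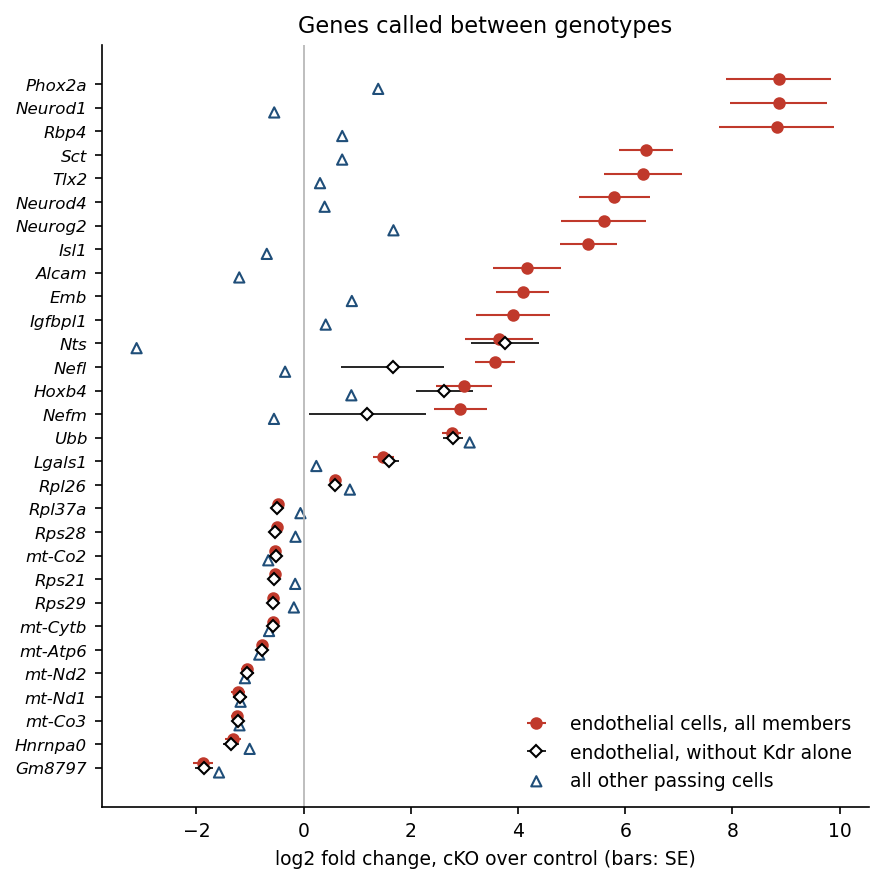
For 30 of the 31 genes that passed between genotypes, filled points give the fitted log2 fold change, cKO over control, in the 112 endothelial cells, diamonds that in the 108 cells without those with Kdr alone, where tested, both with SE bars, and triangles that in all other passing cells. Ubb and mt-Co3 lie close in endothelial and other cells, Lgals1 lies at 1.49 in endothelial and 0.24 in other cells, and the top genes have no diamond because they were not tested without the 4 cells.

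No tested gene of the vascular lists passed between genotypes in edgeR's test, nor in DESeq2. Of 35 tested pan-endothelial genes, 0 passed, with a median log2 difference of -0.05, and 5 had an unadjusted p under 0.05. The arterial, venous, capillary and barrier lists had 0 of 10, 0 of 8, 0 of 9 and 0 of 10, with medians of 0.29, -0.22, 0.55 and 0.01 and with 2, 0, 2 and 4 genes at an unadjusted p under 0.05, beside 10.8% of all genes tested. Aplnr had a log2 difference of -0.37 (SE 0.17) and Sox17 of 0.03 (SE 0.26), from 2 libraries a group. Id1, a target of BMP signalling, had 261 and 228 CPM of all UMIs in cKO, against 134 and 110 CPM in control, without overlap, but missed the threshold (log2 difference 0.97, SE 0.18, edgeR adjusted p = 0.066).

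Genes of hypoxia and glycolysis leaned one way without passing. In edgeR's test 0 of 14 passed, while 10 had an unadjusted p under 0.05, all higher in cKO, and DESeq2 called 3 of them, Gapdh, Ldha and Pgk1. The 15 listed genes summed to 6268 and 5673 CPM in cKO endothelial cells, against 4336 and 3564 CPM in control, without overlap. Their sum in other cells was 7333 and 6815 CPM in cKO, against 5206 and 4835 CPM in control. Pgk1, a glycolytic kinase, had 644 and 472 CPM in cKO, against 343 and 248 CPM in control endothelial cells (log2 difference 0.88, SE 0.20, edgeR adjusted p = 0.134), and its interaction of genotype and cell class did not pass (adjusted p = 0.550).

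The libraries also differed in sex-linked genes. Xist, which is transcribed from the inactive X chromosome of female mice, had 297 and 0 CPM in cKO endothelial cells, against 499 and 194 CPM in control. The Y-linked gene Ddx3y had 19.7 and 46.2 CPM in cKO, against 23.4 and 20.8 CPM in control. The part of sex in the genotype results was not tested.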

How the data were processed

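Single-cell RNA of 2 cKO and 2 control libraries was captured with a 3′ kit. The deposited files hold the authors' raw UMI counts per gene and cell, from Cell Ranger 6.0.1 per the file headers, whereas version 3.1.0 stands, beside FastQC 0.11.4, Seurat 4.1.0 and mm10, in the submitters' processing notes. Library depth and cells are given with the results, and p-values measure only the spread between libraries, which may be technical. Counts were summed per library over endothelial and over all other passing cells, filtered with filterByExpr, scaled by TMM and tested with edgeR 4.0.16 (R 4.3.3), with Benjamini-Hochberg adjustment at 0.05 and, against other cells, the library as a block. DESeq2 1.42.0, other member rules, scalings and filters, and leaving out each library were tried. Scrublet (scanpy 1.11.5) scored doublets, which were kept except in 1 alternative (its automatic threshold marked 10 cells, so the top 586 scores, 0.8% per 1000 barcodes, were taken). The leukocyte-like cells had at least 4 UMIs of Ptprc, Fcer1g, Tyrobp and Csf1r and no UMI of the 4 marker genes or Epcam. Gene IDs were placed with GENCODE vM21.

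Any gene of the lists could be named. Others were the 20 called genes with the largest endothelial difference, higher in every library and at 50 CPM or more, per direction the 10 genes with the smallest genotype p whose groups did not overlap, and the 10 most like each sum. Hoxb4, Nts and other called genes are shown in the plot of fold changes, and 1 called gene is not reported here. Members and lists were chosen with earlier results of these data known. The genotype by cell class test, the Gja4 split, the crossed pairing and leaving out the cells with Kdr alone were chosen after seeing the data.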

Additional observations from a re-analysis of the deposited data

Results flagged for a closer look

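Among the 31 genes called between genotypes, 15 had a genotype effect in endothelial cells that differed from that in the other passing cells. The values come from edgeR's interaction test and are given as the log2 effect in endothelial cells minus that in other cells. Genes outside the 31 also passed this test, such as Gng11 (-0.69, edgeR adjusted p = 0.00545), and were not counted here. Lgals1 had 1.32, and 1.42 (SE 0.20, edgeR adjusted p = 9.49e-09) without the 4 cells with Kdr alone. For 13 genes more than 50% of the endothelial UMIs lay in those 4 cells, all in cKO libraries. Among them Sct had 5.95, Isl1 6.19, Tlx2 6.39, Neurod4 5.75, Alcam 5.56 and Neurog2 4.33. Nefl had 4.00, Igfbpl1 3.63, Nefm 3.61 and Emb 3.35. Neurod1 (15.89), Rbp4 (14.66) and Phox2a (14.02) had 0 UMIs in control endothelial cells, so their fitted values are no bound. Without the 4 cells, Nefm had 1.64 (SE 0.23, edgeR adjusted p = 2.64e-09) and Nefl 2.03 (SE 0.32, edgeR adjusted p = 3.69e-06). Within endothelial cells alone, however, neither passed edgeR's genotype test without the 4 cells. Nefm then had a log2 difference of 1.19 (SE 1.10, edgeR adjusted p = 0.724) and Nefl of 1.66 (SE 0.97, edgeR adjusted p = 0.544). The rest of the 13 genes did not pass the interaction test without those cells.

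Nts, the gene of neurotensin, had 6.65, with no UMI in the cells with Kdr alone. It had 49.6 and 35.0 TMM-scaled CPM in cKO, against 5.24 and 0 CPM in control endothelial cells, from 62 UMIs in all. Without the 4 cells the interaction was 6.76 (SE 1.43, edgeR adjusted p = 0.00124). In the genotype test within endothelial cells, the edgeR adjusted p of Nts was 0.0466 with all members and 0.0964 without the 4 cells. In the other cells its log2 difference was -3.12.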

How the results depend on the processing

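The count of 31 genes between genotypes was the least stable result. It was 95 with scored doublets removed, 17 with at least 6 marker UMIs, 10 with at least 2 of the 4 marker genes, 11 with no condition on Ptprc and Epcam, 10 without the cells with Kdr alone and 244 with no filter on low counts. Leaving out 1 library gave 0 (without cKO 2) to 139 genes (without control 1), where the lone library of a group is assumed to vary like the others. The cause was not tested. It was 44 with at least 3 marker UMIs, 43 with DESeq2 and 25 to 30 under the remaining settings. Replicate numbers were shared by label, but same-numbered libraries did not deviate together (r = -0.25), so the replicate block, with 75 genes, is no paired result. Crossed pairing gave 22.

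The count between endothelial and other cells ranged from 3971 to 5489 around 5073. The share difference stayed at 0.135 to 0.349 percentage points. The share of cells with both arterial and venous UMIs was 31.5%, and it moved with depth, to 22.5% at 3000 and 42.7% at 10000 UMIs per cell. Of the named genes' results, 58 lost their call under an alternative, 2019 kept it, and none of these reversed. Between genotypes 34 were lost and 251 kept, whereas between endothelial and other cells 24 were lost and 1768 kept. Few cells per library limit genes with few UMIs.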
